A study of Mus musculus with 12 samples.

Results

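The contactins and the contactin-associated proteins are a pair of linked families of cell-surface adhesion molecules, and 10 of their genes were followed here in the mouse striatum, namely Cntnap1, Cntnap2, Cntnap3, Cntnap4, Cntnap5a, Cntn1, Cntn3, Cntn4, Cntn5 and Cntn6. These genes were taken by symbol from a count table of 57132 features. The family was chosen by the value of Cntnap3 in the comparison of genotypes, so the difference of Cntnap3 is given as a description, without a test, and the question was whether it stood alone in its family. The data were RNA sequencing counts of the striatum of 6 mice labelled TAAR5-KO, the label for loss of trace amine-associated receptor 5, and 6 littermates labelled TAAR5-WT. All were 10-month-old C57Bl/6 mice without further treatment, 3 male and 3 female per group, but no library is tied to a sex and the fit has no term for it, and each library came from the part of 1 coronal slice that remained once the cortex was removed.

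Contactins are immunoglobulin-type proteins held on the outer membrane by a lipid anchor, whereas contactin-associated proteins (Caspr proteins) resemble neurexins and cross the membrane. On myelinated axons, Cntn1 and the Caspr protein encoded by Cntnap1 form the paranodal junction with glial neurofascin, and the protein of Cntnap2 holds Kv1 potassium channels beside it together with Cntn2. The remaining contactins act in neurite growth, axon guidance and synapse formation, and Cntn3 to Cntn6 can bind the receptor phosphatase encoded by Ptprg. Much less is established about the proteins of Cntnap3, Cntnap4 and Cntnap5a, of which Cntnap4 is best known in inhibitory interneurons.

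The knocked-out gene was checked first. Taar5 had between 1 and 6 counts in every library labelled TAAR5-KO and between 0 and 2 in those labelled TAAR5-WT, where a count of 0 allows up to 3. The deleted stretch of the gene is not given in the sources used here. These few counts lie opposite to the labels, but only the 6 in NK6 exceed what a count of 0 allows. They cannot settle whether the labels are right, so libraries are named as labelled. Every direction below follows the labels. Ribosomal RNA took from 64.3% to 88.1% of a library, so between 1819907 and 6399188 counts remained for other genes. Counts were divided by library sizes corrected by TMM, the trimmed mean of M-values in edgeR, and are given on that scale as CPM, counts per M of library size. Markers of striatal spiny neurons were counted in every library, without another tissue to compare them with. The summed level of 6 D2 markers (Drd2, Adora2a, Penk, Gpr6, Sp9 and Gpr52) ran from 64.1 to 124 CPM and that of 6 D1 markers (Drd1, Tac1, Pdyn, Isl1, Sfxn1 and Eya1) from 24.7 to 52.1 CPM, with no marker at 0 in any library. In such bulk samples, fewer cells of a type and less RNA per cell cannot be told apart.

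Cntnap3 (ENSMUSG00000033063.9, protein coding) lies on the minus strand of chromosome 13 of GRCm39 from 64883996 to 65051769 and was counted over 6386 bases of merged exons. It is the gene on which the question turns, so the bases before its first counted exon are shown. They come from the RefSeq promoter table of GRCm38.p6, were matched at 1 place of GRCm39 and are clipped to the 183 bases outside the counted gene, chr13:65051770-65051952, minus strand. Capitals mark the CpG dinucleotides.

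Cntnap3: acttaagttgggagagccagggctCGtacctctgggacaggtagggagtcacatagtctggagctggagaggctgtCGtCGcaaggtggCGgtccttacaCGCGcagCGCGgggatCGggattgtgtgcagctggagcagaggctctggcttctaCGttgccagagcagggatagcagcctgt

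The whole RefSeq window of 250 bases before the start of Cntnap3 held 11 CpG dinucleotides, against a median of 6 over the 32851 windows of the table and quartiles of 2 and 16. It held none of 5 motifs searched on both strands, namely TATAAA (in 12.37% of all windows), CCAAT (33.85%), GGGCGG (32.74%), the cAMP response element TGACGTCA (1.55%) and CACGTG (6.02%). None of these motifs contains another. The table matched 7 of the 10 genes, with 12 windows in all. CpG content differed widely among these windows, from 0 in that of Cntn3 to 26 in 1 of those of Cntn5. These windows are not alike in place, and several belong to starts deep inside the counted gene. The start lies 108434 bases inside it for Cntn3, but 67 for Cntnap3 and 49 for that window of Cntn5. The value of Cntn3 thus does not describe the bases before its first counted exon. Neither the cAMP response element nor CACGTG was in any of the 12.

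Under the TAAR5-KO label, Cntnap3 was counted at 5.51 CPM (library NK1), 5.00 (NK2), 4.54 (NK3), 4.09 (NK4), 4.32 (NK5) and 3.42 (NK6). Under the TAAR5-WT label, its values were 2.74 CPM (NK7), 3.55 (NK8), 3.17 (NK9), 1.93 (NK10), 2.49 (NK11) and 2.69 (NK12). Of the libraries labelled TAAR5-KO, 5 lay above all of those labelled TAAR5-WT, and the groups overlapped only through NK6 and NK8. The means were 4.48 ± 0.728 CPM (SD, n = 6) and 2.76 ± 0.559 CPM (SD, n = 6), a log2 fold change of 0.65 (SE 0.15, 95% interval 0.35 to 0.94), or 1.57-fold. Because Cntnap3 was picked by this same comparison, the estimate may be too large. The interval makes no allowance for that choice and is not a test. These are values of a low-count gene, with 16 counts in NK10 and at most 131, in NK6. Leaving out 1 library at a time moved the log2 fold change between 0.58, without NK1, and 0.73, without NK8.

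**Figure D1:**
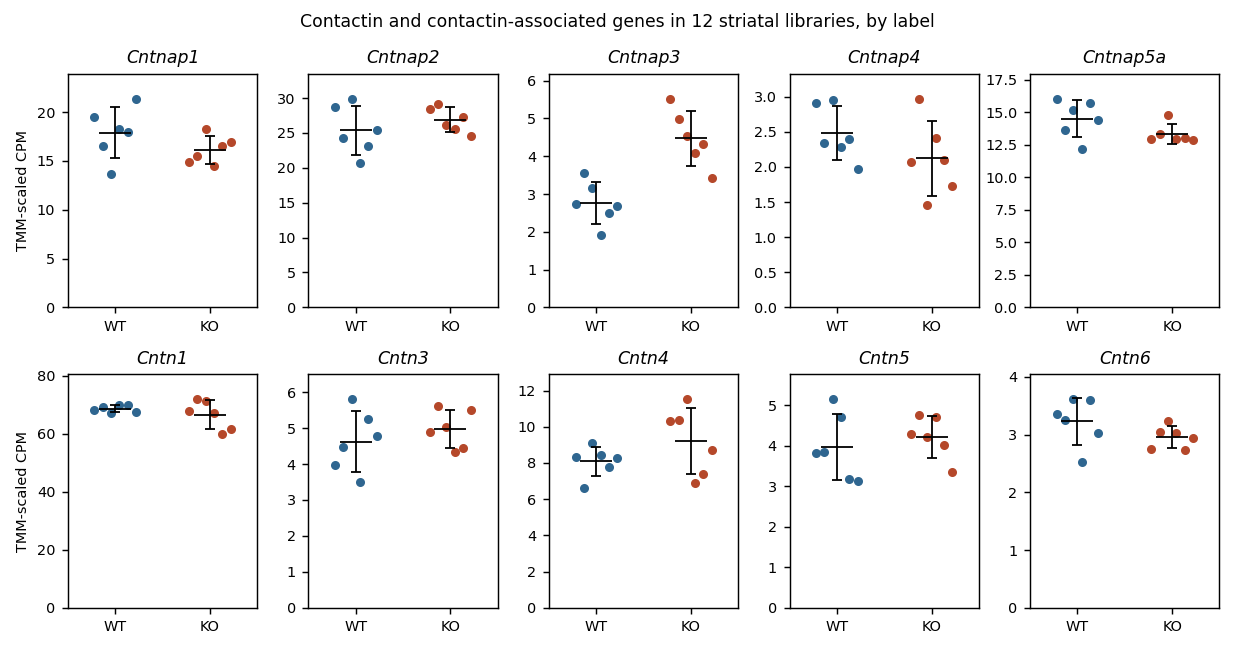
Each panel plots 1 gene, with TMM-scaled CPM on an axis from 0 and libraries labelled TAAR5-WT (WT, left) and TAAR5-KO (KO, right) as points, and bars give the mean and SD of 6 libraries. Cntnap3 had 5 of 6 libraries labelled TAAR5-KO above all labelled TAAR5-WT, and at most 3 libraries of another member (Cntn4) lay so.

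The same difference was seen without library sizes or TMM, when Cntnap3 was scaled to the counts on the 10 genes and taken as a share of them. This share was 2.96% ± 0.387 (SD, n = 6) in libraries labelled TAAR5-KO, ranging from 2.41% to 3.58%. It was 1.82% ± 0.364 (SD, n = 6) in libraries labelled TAAR5-WT, ranging from 1.33% to 2.40%. All 6 libraries labelled TAAR5-KO thus lay above all 6 labelled TAAR5-WT, but the nearest pair, NK6 and NK8, differed far less than its counting error. The exact binomial 95% interval was 2.02% to 2.86% in NK6 and 1.92% to 2.96% in NK8. Such intervals cover counting error only. This share rests on the same counts as the values above and is no second line of evidence. In CPM, where the groups overlapped for Cntnap3, they did not overlap for 1.01% of the 13902 features tested, and no such background was computed for shares.

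**Figure D2:**
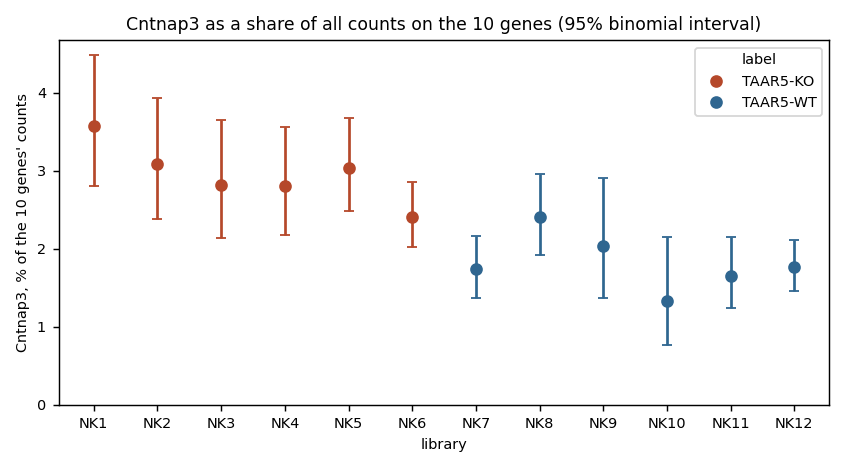
The counts on Cntnap3 are plotted as a percentage of the counts on all 10 genes in each library, with exact 95% binomial intervals, colored by label. The 6 libraries labelled TAAR5-KO sit between 2.41% and 3.58% and the 6 labelled TAAR5-WT between 1.33% and 2.40%.

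To see how the rest of the family compared, all 10 genes were read from 1 likelihood ratio test fitted over 13902 features, with a Benjamini–Hochberg adjusted p under 0.1 as the threshold. All 10 genes had passed the filter on low values. Cntnap3 was the 1 member past the threshold, which is no test of it, because it was picked by this comparison. Over all features, 1.65% were past it, and 0.957% were past it and higher in libraries labelled TAAR5-KO, and nothing is read from the count of members, since Cntnap3 led to their choice. The other 9 members were not past the threshold by edgeR, with adjusted p from 0.539 to 0.883, and 0 of these 9 had an unadjusted p under 0.05, where 11.9% of all features did. By the quasi-likelihood test 0 of the 9 were called, and by DESeq2 0 of 8, since DESeq2 gave no adjusted p for Cntnap4. Of the 10 members, 5 had a positive log2 fold change and 5 a negative one, with a median of 0.02, against −0.01 over all features tested. The 95% intervals of the other 9 reached at most 0.43 upward, for Cntn4, and −0.57 downward, for Cntnap4. Differences inside these intervals cannot be told from none with 6 libraries per label at this depth. Whether Cntnap3 differed by more than its relatives was not tested, because Cntnap3 was picked from this comparison.

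**Figure D3:**
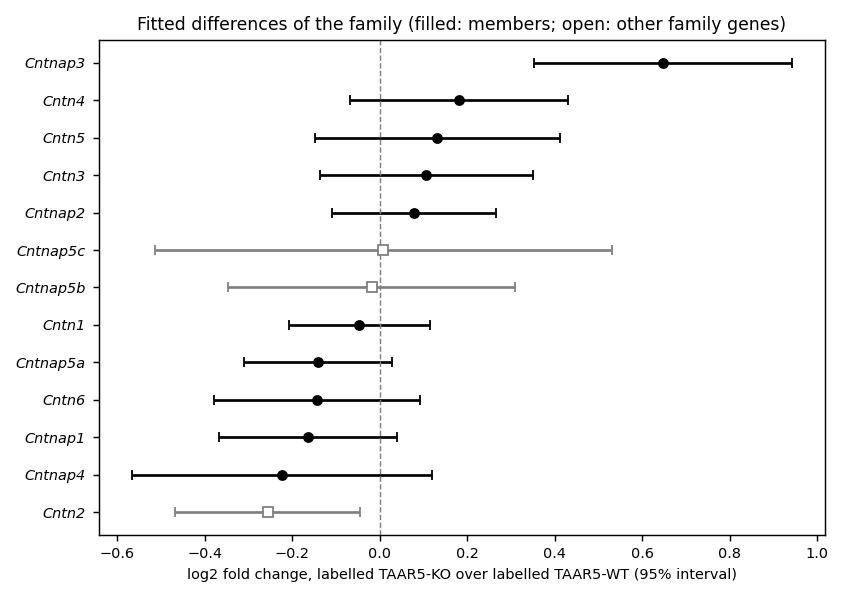
Points give the fitted log2 fold change, TAAR5-KO label over TAAR5-WT label, with its 95% interval, filled for the 10 members and open for Cntn2, Cntnap5b and Cntnap5c. Cntnap3, which led to the choice of the family, is at 0.65, and the other members run from −0.22 (Cntnap4) to 0.18 (Cntn4).

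The paranodal partners Cntn1 and Cntnap1 are described first, and Cntn1 was the most abundant member per exon length. Cntn1 (ENSMUSG00000055022.15, chromosome 15, 91949046 to 92239848), the contactin of the axonal paranode, ran from 60.1 to 71.9 CPM (median 67.5) in libraries labelled TAAR5-KO and from 67.3 to 70.0 CPM (median 68.8) in those labelled TAAR5-WT. The groups overlapped, with 2 libraries labelled TAAR5-KO above and 3 below the whole range of the others. Its log2 fold change was −0.05 (adjusted p = 0.883 by edgeR's likelihood ratio test, with an SE of 0.08). Cntnap1 (ENSMUSG00000017167.7, chromosome 11, 101061349 to 101081550), which encodes the axonal Caspr protein bound to Cntn1, ran from 14.4 to 18.3 CPM (median 16.0) in libraries labelled TAAR5-KO. In those labelled TAAR5-WT it ran from 13.7 to 21.3 CPM (median 18.1), and this range contained all libraries labelled TAAR5-KO. The log2 fold change was −0.16 (adjusted p = 0.561, with an SE of 0.10). Of the counted bases of Cntnap1, 233 also lie in Plekhh3 on the opposite strand, and the strand setting of the counting is not given.

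Cntnap2 (ENSMUSG00000039419.18, chromosome 6, 45036291 to 47281147), which organizes potassium channels of the juxtaparanode, spans 2244.9 kb. It ran from 24.6 to 29.2 CPM (median 26.8) in libraries labelled TAAR5-KO and from 20.7 to 29.9 CPM (median 24.9) in those labelled TAAR5-WT. The narrower range of the libraries labelled TAAR5-KO lay within that of the others. The log2 fold change was 0.08 (adjusted p = 0.809, with an SE of 0.10).

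The remaining Caspr genes had negative estimates that did not pass the test. Cntnap5a (ENSMUSG00000070695.5, chromosome 1, 115612486 to 116515053) ran from 12.9 to 14.8 CPM (median 13.0) in libraries labelled TAAR5-KO and from 12.2 to 16.0 CPM (median 14.8) in those labelled TAAR5-WT. All libraries labelled TAAR5-KO fell inside the range of the others, for a log2 fold change of −0.14 (adjusted p = 0.539, with an SE of 0.09). Cntnap4 (ENSMUSG00000031772.18, chromosome 8, 113296675 to 113609349), studied mainly in interneurons, was the lowest member, with 18 to 87 counts per library. It ran from 1.46 to 2.97 CPM (median 2.08) against 1.97 to 2.95 CPM (median 2.37), with 2 libraries labelled TAAR5-KO below and 1 above all of the others. Its log2 fold change of −0.22 (adjusted p = 0.661, with an SE of 0.18) had the widest interval of the 10 members, −0.57 to 0.12. In Cntnap4, 503 counted bases are shared with Gm45904 on the opposite strand.

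Of the 4 contactins linked to Ptprg, 3 had small positive estimates. Cntn4 (ENSMUSG00000064293.15, chromosome 6, 105654621 to 106676271), known in axon guidance, had the largest estimate after Cntnap3. Its values were 10.3 CPM (NK1), 10.4 (NK2), 11.5 (NK3), 6.88 (NK4), 7.38 (NK5) and 8.74 (NK6), whereas the libraries labelled TAAR5-WT ran from 6.64 to 9.08 CPM (median 8.28). NK1, NK2 and NK3 lay above every library labelled TAAR5-WT and the other 3 within their range, for a log2 fold change of 0.18 (adjusted p = 0.606, with an SE of 0.13). Cntn3 (ENSMUSG00000030075.11, chromosome 6, 102139616 to 102550062) ran from 4.34 to 5.62 CPM (median 4.96) against 3.49 to 5.80 CPM (median 4.62). The range of the libraries labelled TAAR5-WT contained all of the others, and the log2 fold change was 0.11 (adjusted p = 0.794, with an SE of 0.12). Cntn5 (ENSMUSG00000039488.16, chromosome 9, 9660896 to 10904780), a contactin studied in the auditory pathway, ran from 3.34 to 4.76 CPM (median 4.25) against 3.12 to 5.14 CPM (median 3.83). It too was contained in the range of the libraries labelled TAAR5-WT, with a log2 fold change of 0.13 (adjusted p = 0.781, with an SE of 0.14), and it shares 290 counted bases with Gm32710 on the opposite strand. Cntn6 (ENSMUSG00000030092.15, chromosome 6, 104469751 to 104840367), which acts in neurite growth, ran from 2.73 to 3.24 CPM (median 2.99) against 2.53 to 3.61 CPM (median 3.30). Although 4 libraries labelled TAAR5-WT lay above all of the others, 1 lay below them, and the log2 fold change was −0.14 (adjusted p = 0.691, with an SE of 0.12).

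Exact copies of the members' exons elsewhere in the genome were rare. Windows of 100 bases, as long as the reads, were taken from the merged exons and sought in the whole genome. Near copies, shorter reads and reads across exon junctions were not examined. An exact second copy was found for 0.29% of the windows of Cntn3, for 0.129% of those of Cntn1 and for 0 of those of the other 8, Cntnap3 included. No counted base of Cntnap3 is shared with another annotated gene on either strand.

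A further 3 genes of the families were read from the same fit, and none was past the threshold. Cntn2, the contactin of the juxtaparanode, had the lowest estimate of the whole family, −0.26 on the log2 scale (adjusted p = 0.287, unadjusted p = 0.018, with an SE of 0.11). Cntnap5b had −0.02 (SE 0.17) and Cntnap5c had 0.01 (SE 0.27), the latter with at most 57 counts per library. Among 30 partner genes in all, these 3 included, 0 were past the threshold by edgeR's likelihood ratio test, 16 had a positive and 14 a negative estimate, and the median was 0.01. At an unadjusted p under 0.05 there were 5 of 30, near the 11.9% of all features. These were Cntn2, Kcnab1, Ptprz1, Tnc and Notch1, named after their values were seen.

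The partners of the paranode (Nfasc, Epb41l3, Ank2, Sptan1 and Sptbn1), the glial receptor and the scaffold that anchor this junction, had estimates from −0.10 to 0.06. The 8 juxtaparanodal genes, among them the Kv1 subunits Kcna1 and Kcna2, had estimates from −0.21 to 0.22, the highest being that of Kcnab1 (adjusted p = 0.324, with an SE of 0.10), a Kv1 auxiliary subunit. The receptor phosphatases were lower in estimate, Ptprz1 by −0.18 (adjusted p = 0.409, with an SE of 0.09) and Ptprg by −0.11 (adjusted p = 0.642, with an SE of 0.08). Genes of the L1 family, which bind contactins laterally, ran from −0.01 to 0.12, and 4 genes of nodal channels and scaffold (Scn2a, Scn8a, Ank3 and Sptbn4) from 0.01 to 0.18. Among the ligands, the extracellular matrix gene Tnc had the lowest estimate, −0.69 (adjusted p = 0.220, with an SE of 0.27), with 3 to 43 counts per library, whereas Tnr had 0.05 (SE 0.10).

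Levels of different genes were compared per length, as CPM per kb of merged exon over all 12 libraries. Cntn1 was at 7.17 ± 0.378 CPM per kb (SD, n = 12), 2.48 times as high as Cntnap1 at 2.89 ± 0.378. Cntnap2 followed at 2.55 ± 0.267 and Cntnap5a at 1.27 ± 0.116. Cntn4 was at 1.02 ± 0.174, Cntn5 at 0.904 ± 0.146 and Cntn3 at 0.713 ± 0.103. Cntnap3 came eighth at 0.567 ± 0.171, before Cntn6 at 0.476 ± 0.0516 and Cntnap4 at 0.366 ± 0.0763.

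Only 2 steps in this order held in all 12 libraries, the one from Cntn1 to Cntnap1 and the one from Cntnap2 to Cntnap5a. Cntnap1 and Cntnap2 kept their order in 8 of 12 libraries and Cntn4 and Cntn5 in 7, so the order of these neighbors varied between libraries. Cntnap3 lay above Cntn6 in 7, namely all those labelled TAAR5-KO and NK8. Differences between neighbors were not tested. The place of Cntnap3 turned with the label. Under the TAAR5-KO label it was at 0.701 ± 0.114 CPM per kb and Cntn6 at 0.455 ± 0.0298 (SD, n = 6 each), whereas under the TAAR5-WT label it was at 0.432 ± 0.0876 and Cntn6 at 0.497 ± 0.0626. Cntn1, the most deeply counted member, had a coefficient of variation of 5.27% over the 12 libraries.

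**Figure D4:**
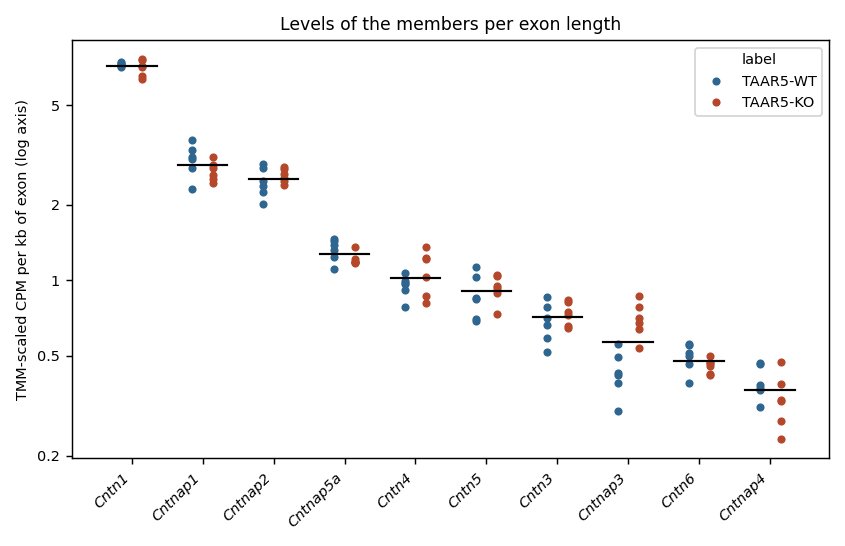
Levels are TMM-scaled CPM per kb of merged exon on a logarithmic axis, with points for libraries colored by label and a line for the mean of 12. The members span from 7.17 for Cntn1 to 0.366 for Cntnap4, and the levels of Cntnap3, at 0.567 over all libraries, lie mostly higher under the TAAR5-KO label.

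Across the 12 libraries, members did not rise and fall as a unit. The median of Pearson's r over the 45 pairs of members was 0.24, from −0.69 to 0.87 (log2 CPM with a prior count of 2). These are descriptions of 12 points that share libraries, scaling and labels. The closest pair was Cntnap5a and Cntn6, with r = 0.87 (Spearman's rho 0.86). It was 0.85 without the 2 libraries farthest from the median of Cntnap5a and 0.84 once the mean of each label was subtracted. Cntnap3 was most like Cntnap2, with r = 0.63 (rho 0.54), 0.56 without 2 libraries and 0.69 within labels, and least like Cntnap1 (r = −0.54). The most opposed pair was Cntnap1 and Cntn5, with r = −0.69 (rho −0.71), which fell to −0.42 without 2 libraries. The paranodal partners Cntn1 and Cntnap1 hardly moved together, with r = 0.10 (rho 0.27).

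Among all features tested, those most like Cntnap3 across the 12 libraries were Tia1 (r = 0.95, 0.86 within labels), Grm5 (r = 0.95, 0.90 within labels), Gm48692 (r = 0.95, 0.92 within labels), Gm36989 (r = 0.94, 0.87 within labels) and Psip1 (r = 0.94, 0.90 within labels). Tia1 encodes an RNA-binding protein, Grm5 a metabotropic glutamate receptor and Psip1 a chromatin-bound protein, and Gm48692 had at most 35 counts in a library. This r includes the difference between labels, for which Cntnap3 was chosen. Within labels the order was another, led by Xiap (0.96) and A230006K03Rik (0.93), with Tia1 at place 23 and Gm36989 at place 13. The median r of Cntnap3 with the 13901 other features was −0.05, and 23 exceeded 0.9.

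Other measures also moved with the labels or with Cntnap3 and are given beside it. Each of 11 marker lists was summed per library and, with 4 measures of depth and ribosomal content, compared between labels. The 6 astrocyte markers (Gja1, Aqp4, Aldh1l1, Slc1a3, Gfap and Slc4a4) summed to 206 ± 25.2 CPM under the TAAR5-KO label and to 250 ± 10.4 CPM under the TAAR5-WT label (SD, n = 6 each). The ranges of 173 to 233 and 236 to 264 CPM did not overlap (two-sided exact permutation test, p = 0.00216, the smallest it can give, adjusted over 15 measures p = 0.0325). All 6 markers had a negative estimate, and 1 was past the threshold. The 5 microglia markers ranged from 21.8 to 31.7 against 29.9 to 38.3 CPM (exact permutation p = 0.00433, adjusted p = 0.0325), with 2 past the threshold and all 5 lower in estimate. The 6 markers of mature oligodendrocytes, whose myelin borders the paranode, ranged from 569 to 692 against 602 to 769 CPM (exact permutation p = 0.0281, adjusted p = 0.130). The 6 D2 markers ranged from 101 to 124 against 64.1 to 110 CPM (exact permutation p = 0.0346, adjusted p = 0.130), and 0 of them were past the threshold. Of these, 5 had a positive estimate and 1, Gpr6, a negative one (−0.27). Most of this sum was Penk, with means of 85.6 and 72.3 CPM where the sum had means of 115 and 99.2 CPM (TAAR5-KO and TAAR5-WT label). The ranges of the last 3 lists overlapped between labels. For 6 other lists the exact permutation p ran from 0.0606 (D1) to 0.931 (interneuron), before adjustment. No marker of these first 4 lists was at 0 in any library.

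Cntnap3 was the higher the lower the mature oligodendrocyte sum, with r = −0.72 (rho −0.66) over the 12 libraries and −0.45 within labels. With the astrocyte sum r was −0.64 (rho −0.72), but −0.06 within labels. With the microglia sum r was −0.55 (rho −0.62), and 0.17 within labels. With the D1 sum r was 0.58 (rho 0.72), and with the D2 sum it was 0.54 (rho 0.64), values that were 0.35 and 0.27 within labels. With total counts, most of them ribosomal, r was 0.67 (rho 0.68), and it was 0.61 within labels. NK1 had the most total counts and the highest Cntnap3. With counts outside ribosomal RNA r was only 0.19, and 0.22 within labels. With the share of ribosomal RNA, which ran from 73.8% to 88.1% in libraries labelled TAAR5-KO and from 64.3% to 87.4% in those labelled TAAR5-WT (exact permutation p = 0.312), r was 0.39. With that share as a covariate, the log2 fold change of Cntnap3 was 0.55. The part of the marker lists and of depth in the difference of Cntnap3 was not tested.

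Other members followed some of the same measures as Cntnap3, and other lists besides. With the astrocyte sum, the r of Cntn4 was −0.73 (rho −0.52), and −0.75 within labels. With total counts, r was 0.63 (rho 0.67) for Cntn3 and 0.60 (rho 0.54) for Cntn4. Cntn4 was lowest where the choroid plexus sum (r = −0.77, rho −0.69) and the ependyma sum (r = −0.76, rho −0.66) were highest. Cntn5 went with the D1 sum (r = 0.70, rho 0.66) and with the share of ribosomal RNA (r = 0.71, rho 0.78). Cntnap4 went with the oligodendrocyte precursor sum (r = 0.80, rho 0.75), and its r with the interneuron list (Pvalb, Sst, Npy, Nos1, Chat, Kit, Lhx6 and Vip) was 0.06. These are among the larger values of 130 pairs of a member and a measure, except that for the interneuron list, and no p is attached to them.

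**Figure D5:**
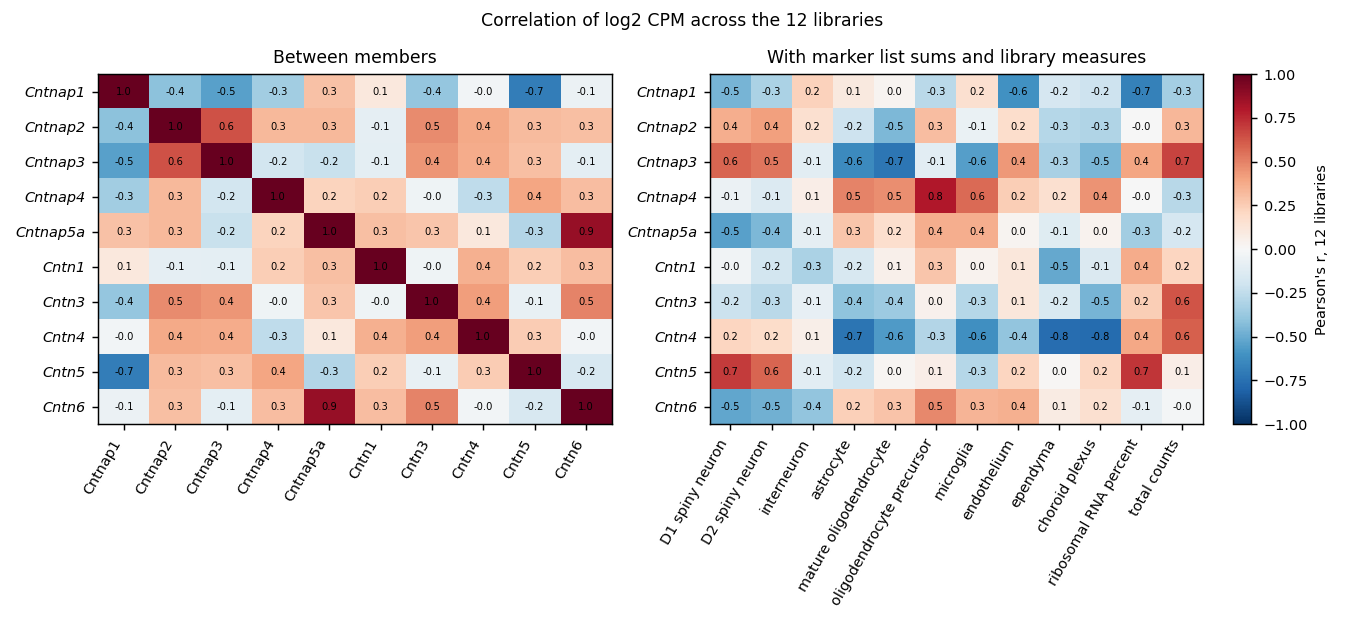
Cells give Pearson's r of log2 CPM across 12 libraries, between members on the left and between members and marker list sums, ribosomal RNA percentage and total counts on the right. Cntnap5a and Cntn6 form the closest pair (0.87), and the Cntnap3 row runs from −0.72 with the mature oligodendrocyte sum to 0.67 with total counts.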

How the data were processed

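Striatal RNA of 6 mice labelled TAAR5-KO and 6 labelled TAAR5-WT was depleted of ribosomal RNA (the labels name polyA RNA) and read from 1 end. The authors used cutadapt 4.1 and STAR 2.7.11b (genome GRCm39) and deposited whole-number counts per gene from featureCounts 2.0.6, without normalization. The strand setting and the treatment of multi-mapping reads are not given in the sources used here. Counts of 12 libraries in other columns were left out. The deposited exon lengths gave CPM per kb.

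Features with a CPM of at least 0.5 on total counts in at least 3 libraries were kept, TMM-normalized and compared with glmFit and glmLRT of edgeR 4.0.16 (R 4.3.3) without covariates, the paper's test and threshold. Standard errors came from the same fit. Members, partner and marker lists and tests were chosen with earlier results of these data known. Of the 11 marker lists, 1 is not reported here. Named genes were all members, any partner past the threshold (0 were), and the 5 features most like Cntnap3. The other partners are named to give their lists, their ranges and their extremes, and these, with the leaders within labels, were picked after their values were seen. Single values per library were compared by enumerating all assignments to 6 and 6. Alternatives tried were DESeq2 1.42.0, edgeR's quasi-likelihood test, other scalings, filters and thresholds, dispersion, ribosomal RNA, length and GC settings (loess, span 0.5), and leaving out each library. The fits were tested on simulated data. No pair of libraries within a label was alike within counting noise (30 pairs, chi-square per degree of freedom 6.74 to 319), so none was taken for a repeat deposit of another. Total counts ran from 11269915 to 34824450.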

Additional observations from a re-analysis of the deposited data

Results flagged for a closer look

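Among the 20 sets of 6 libraries (10 members in each of 2 labels), 1 held a library far from the rest by Dixon's ratio. Cntnap5a was at 14.8 CPM in NK3, labelled TAAR5-KO, whereas the other 5 libraries of that label lay between 12.9 and 13.3 CPM (ratio 0.761, critical value 0.625). Chance flags about 1 in 20 such sets.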

How the results depend on the processing

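The column names carry numbers NK1 to NK12 rather than the animal numbers of the labels. No paired analysis was possible because no column can be tied to an animal. As a description of the value that led to the choice of the family, the log2 fold change of Cntnap3 ran from 0.11 to 0.66 over 13 alternatives and from 0.58 to 0.73 over 12 fits without 1 library. The lowest came with library size as the only scaling, where 0 members were called. On that scale the median of all features shifted to −0.49, and Cntnap3 stood 0.60 above it. There, the estimates of Cntnap2 (−0.45), Cntn3 (−0.36), Cntn4 (−0.40) and Cntn5 (−0.34) turned negative, and Cntn3 also did (−0.0079) once the GC trend was removed. The other 9 members passed the threshold in 0 of these fits, although DESeq2 gave no adjusted p for Cntnap4. The 1 member called in every fit without 1 library was Cntnap3, and nothing is read from this, since it led to the choice. Of the 30 partners, 0 were called in any fit.

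Of all features, 229 were called, but 63 by the quasi-likelihood test, 7 with library size only, 93 without a filter, 101 with the ribosomal RNA share as a covariate, 86 with the GC trend removed and 108 at an adjusted p under 0.05. Without 1 library the number ran from 85 (without NK11) to 414 (without NK4). Levels per kb of 6 members moved by more than 1 SD with library size only, to between 0.580 and 8.59. A gene at 18 counts, as Cntnap4 in 1 library, is limited by counting error.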
